A study of Drosophila melanogaster with 28 samples.

Results

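The subject is a set of 60 Drosophila developmental regulator genes that are widely known as targets of Polycomb repression, out of 17558 genes in the count table at 14-16 h and 17753 in that at 16-18 h. Members were found by gene symbol, and 60 of 60 were present at both ages. Most encode transcription factors, and wg, hh and dpp encode secreted signals. By chromosome, 16 members lie on 2L, 14 on 2R, 9 on 3L, 14 on 3R, 5 on X and 2 on 4. No chromatin mark is part of these libraries, so Polycomb binding of the members in these embryos is background and not a result.

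Polycomb group proteins keep developmental regulators silent outside the cells that need them. Polycomb repressive complex 2, whose methyltransferase is E(z), methylates histone H3, and Polycomb repressive complex 1, to which Psc belongs, compacts chromatin and ubiquitinates histone H2A. Spps binds DNA at Polycomb response elements, the stretches of sequence that recruit these complexes. nej encodes the fly CBP acetyltransferase, which acetylates histones and works with activators, and Dfd is a Hox gene of the head. Mothers of the mutants were heterozygous, so an embryo can start with product from the mother, and the nej embryos were taken, per the study, at a stage when the maternal protein had run out.

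Messenger RNA was sequenced from whole embryos. At 14-16 h after egg laying the groups were nej3, nejEP1179 and the control stock w1118, with 4 libraries in each. At 16-18 h there were 2 libraries of Dfd1, 3 of ez731, 2 of psce22, 3 of psch27, 3 of SppsG8810 and 3 of w1118. These labels stand for alleles of nej, Dfd, E(z), Psc and Spps. Mutant stocks were kept heterozygous over balancer chromosomes marked with GFP, and embryos without GFP were picked, also by their morphology, and pooled, so that each library is a pool and mutants and controls come from different parents. Per the methods of the study, nej3 was in a w mutant background over FM7c. nejEP1179 and SppsG8810 are insertions of an EP transposon, the former in a w mutant background and the latter in w1118 over TM6C. The E(z) allele was in a w mutant background, on a chromosome with an FRT site over TM6C. Dfd1 was listed with the marker p[p], and both Psc alleles were kept over CyO. The study states equal amounts of males and females for its experiments, and the sex of the embryos in each library is not given. The share of males was not compared between mutant and control libraries. An effect of sex therefore cannot be told apart from one of genotype. The study calls its replicates biological but does not say whether they came from separate cultures or egg collections, so the p-values below cover no more than the spread between the libraries at hand. In whole embryos, fewer cells of a type and less RNA per cell cannot be told apart.

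Libraries held 13129082 to 21509453 counted reads at 14-16 h and 17940038 to 22354257 at 16-18 h. Levels are CPM, the reads of a gene for every 1000000 reads of a library after scaling of library sizes. Changes are log2 fold changes ± SE from a model of all libraries of one age, and a gene is called where its p, adjusted over all genes, is under 0.05. Of the 60 members, 59 passed the filter on low counts at both ages. The exception was lbe, a homeobox gene of heart and muscle precursors, with 0 reads in 9 of 28 libraries and at most 8 reads in any. In the 9 libraries with 0 reads, a count of 0 allows up to 0.134 to 0.161 CPM by depth (3 reads), for counting error only.

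The targeted genes were examined first. nej lay at 226 to 251 CPM in nej3 and 232 to 257 CPM in w1118, whereas nejEP1179 had 358 to 532 CPM. Dfd was at 6.49 and 9.09 CPM in the Dfd1 libraries and at 17.95 to 19.2 CPM in w1118 of 16-18 h. E(z) was at 20.8 to 22.1 CPM in the libraries labelled ez731, at 15.5 and 14.2 CPM in those labelled psce22, at 15.7 CPM in psch27 replicate 1, and at 22.95 to 25.7 CPM in w1118. Psc was at 318 to 342 CPM in the libraries labelled SppsG8810, at 121 and 128 CPM in psch27 replicates 2 and 3, at 18.1 CPM in psch27 replicate 1, and at 24.6 to 31.4 CPM in w1118. Spps was at 14.97 to 15.3 CPM in the libraries labelled SppsG8810 and at 14.25 to 15.3 CPM in w1118.

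These levels go against several labels at 16-18 h, and so do the deposited tables per mutant. The mean counts in the table named ez731 were those of psce22 replicates 1 and 2 with psch27 replicate 1, the table named psce22 held those of psch27 replicates 2 and 3, the table named psch27 those of the SppsG8810 columns, and the table named SppsG8810 those of the ez731 columns. Groups are used here by the sample labels, so that a group name at 16-18 h means the libraries labelled so. Results are also given with psch27 replicate 1 moved to the psce22 libraries, called the regrouped fit.

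In w1118 embryos the members spanned a wide range of levels. Per kilobase of exon, GATAe, a GATA factor of the midgut, was the highest at 16-18 h with 38.6 CPM per kilobase, followed by tsh, a zinc finger gene of the trunk, with 36.7 and cad, a homeobox gene of the posterior and the gut, with 24.2. The lowest of the 59 were prd, a pair-rule gene, with 0.417, ind, a homeobox gene of the intermediate neural column, with 0.425, and gsb, a paired-domain gene of segment polarity, with 1.09. Levels below are CPM without length and are compared between libraries of one gene only.

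The w1118 libraries of both ages were set side by side without a test, since each age has a table of its own. Each table was scaled on its own, so age cannot be told apart from other differences between the tables. Of the 59 members, 31 had every 16-18 h library below every 14-16 h library, 9 had every 16-18 h library above, and 19 overlapped, with a median log2 ratio of -0.17. No such split was made over all genes, so it cannot be told whether the members differ from genes in general. ct, a homeobox gene of sense organs and Malpighian tubules, was at 229, 237, 228 and 212 CPM at 14-16 h and at 93.03, 105 and 111 CPM at 16-18 h, and salm, a zinc finger gene of trunk and head identity, was at 92.8, 93.1, 95.2 and 91.4 CPM and then at 44.4, 48.2 and 52.99 CPM. The later libraries were the low ones in both genes. gsb-n, a paired-domain gene of the nervous system, was at 9.14, 7.82, 8.56 and 8.55 CPM and then at 2.798, 2.79 and 2.7 CPM. cad was at 39.9, 40.7, 38.5 and 37.4 CPM and then at 65.5, 62.1 and 59.3 CPM, and Doc1, a T-box gene of the dorsal ectoderm and heart, at 9.33, 8.38, 8.33 and 8.33 CPM and then at 13.5, 14.4 and 13.5 CPM, so that for these 2 genes the later libraries were the high ones.

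**Figure D1:**
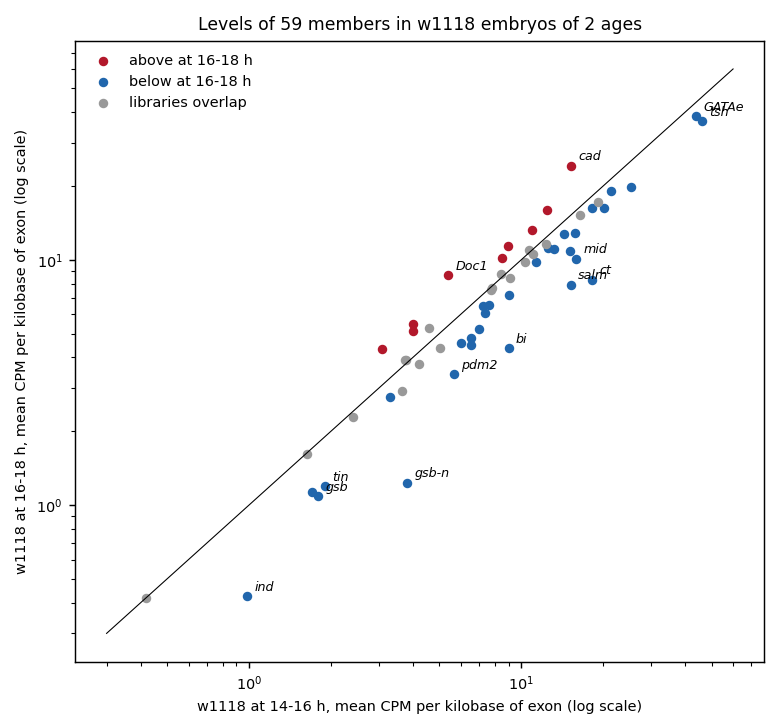
Mean level of 59 members in w1118 at 14-16 h (x axis) and 16-18 h (y axis), in CPM per kilobase of exon on log scales, with the line of equal levels. Members are coloured by whether every 16-18 h library was below (31) or above (9) every 14-16 h library, or overlapped (19). The split was not made over all genes, and age cannot be told apart from other differences between the count tables. gsb-n, ind, ct and bi lie farthest below the line, and Doc1 and cad farthest above it.

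Each comparison asked which of these regulators differ from w1118 of the same age. The groups are labelled as mutants of a coactivator (nej), a Polycomb component (E(z), Psc, Spps) or a Hox factor (Dfd). For the labels ez731, psce22, psch27 and SppsG8810 the mutated gene is in doubt, as given above. The 5 comparisons at 16-18 h share 3 w1118 libraries and both nej comparisons share 4, so they are not independent of each other. In nej3, 5 of 60 members were higher (8.33%) and 4 lower (6.67%), where 12.3% and 11.7% of all genes tested were higher and lower. In nejEP1179, 2 members were higher (3.33%) and 4 lower (6.67%), against 12.6% and 12.3% of all genes. In Dfd1, 1 member was higher (1.67%) and 24 lower (40%), against 25.5% and 27.0% of all genes.

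In ez731, 3 members were higher (5%) and 13 lower (21.7%), beside 13.2% and 15.8% of all genes. In psce22, 12 were higher (20%) and 7 lower (11.7%), beside 17.7% and 21.9%. In psch27, 1 was higher (1.67%) and 5 were lower (8.33%), beside 3.48% and 4.0%. In SppsG8810, 3 were higher (5%) and 25 lower (41.7%), beside 3.43% and 5.43%. Among these comparisons with w1118, the share of members lower in SppsG8810 lay farthest above its background, and the nej shares lay below theirs.

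**Figure D2:**
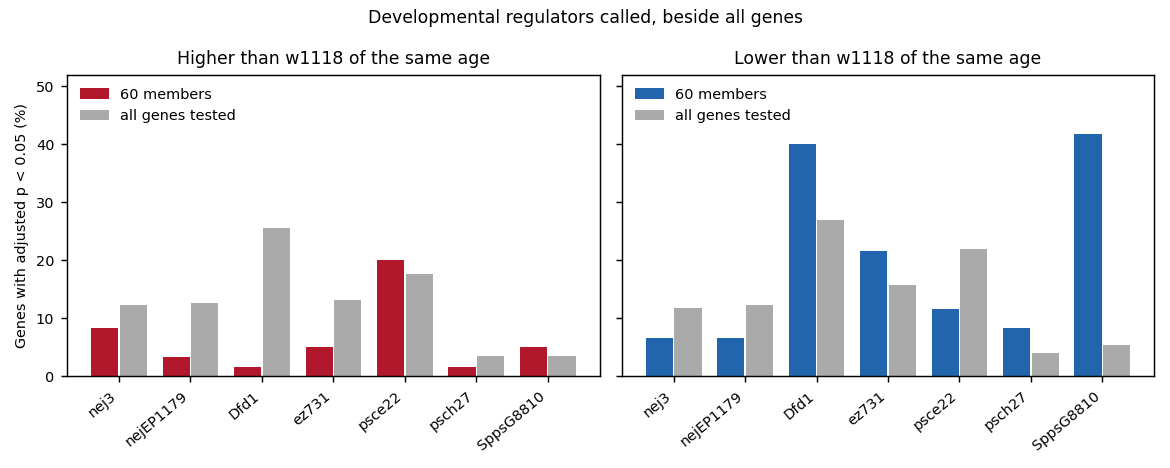
Percent of the 60 members and of all genes tested with an adjusted p under 0.05 in each group, higher and lower than w1118 of the same age. In SppsG8810, 41.7% of members were lower beside 5.43% of all genes, and in Dfd1 40% beside 27.0%.

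**Figure D3:**
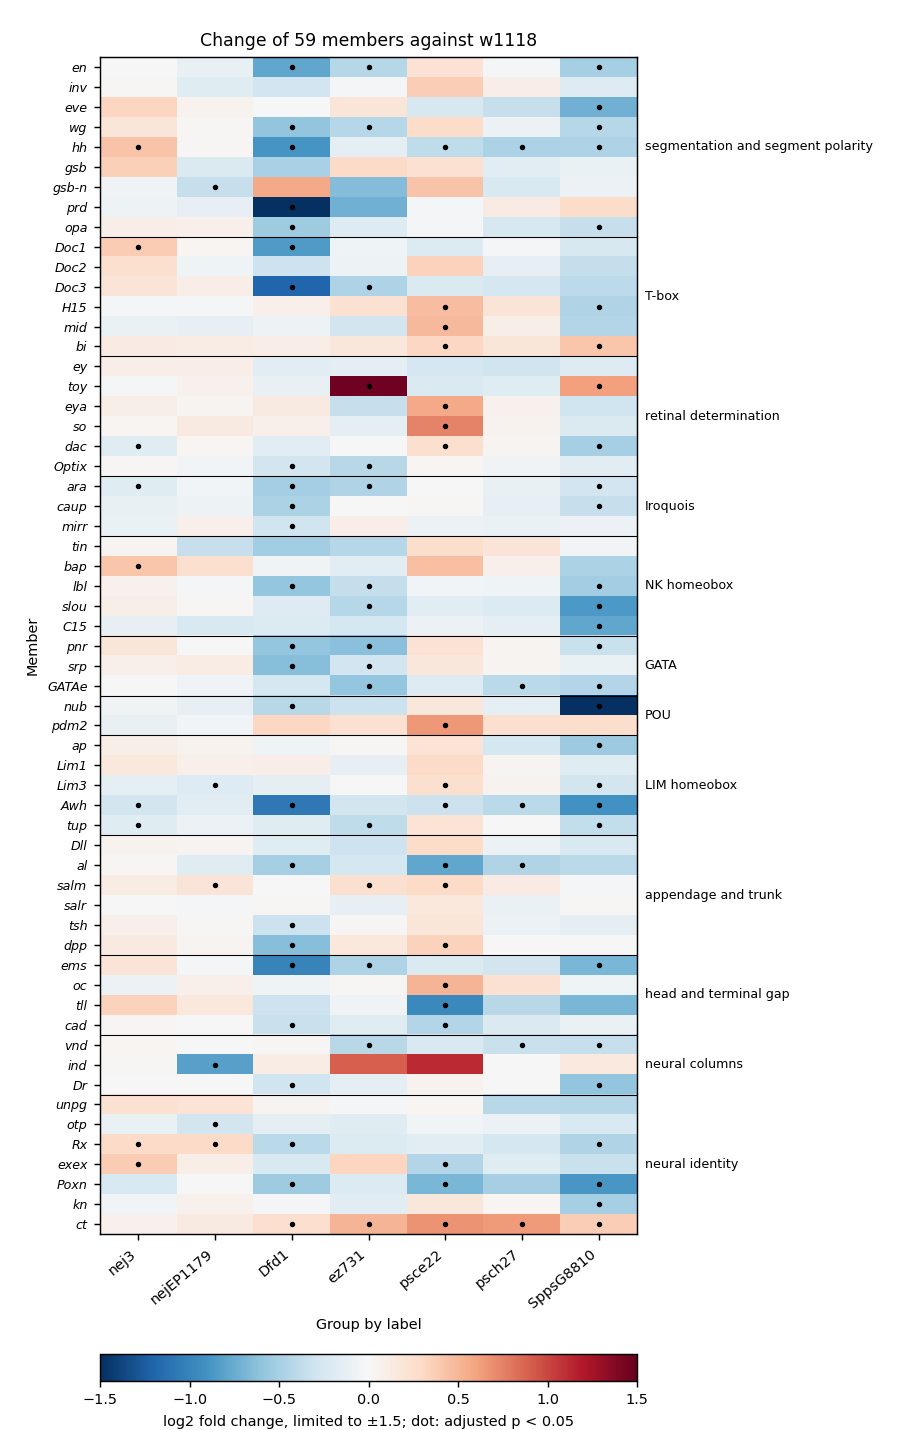
Log2 fold change of 59 members (1 line each, grouped by role) against w1118 of the same age in the 7 mutant groups (columns), with red higher, blue lower and the colour capped as the scale shows. Dots mark an adjusted p under 0.05. In SppsG8810, 52 of 59 members are below 0, and ct is above 0 in the 5 groups of 16-18 h.

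In the libraries labelled SppsG8810, 25 of the 60 developmental regulators had less RNA than in w1118 and 3 had more. The median change of the 59 members was -0.33 and that of all genes was -0.0045, and 52 of 59 members were below 0. The largest fall was in nub, a POU homeobox gene of the wing and the nervous system, followed by Awh, Poxn, slou and C15. toy, bi and ct were higher.

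nub (2L, 12587625 to 12628135 on dm6) had 8.55, 10.4 and 9.202 CPM in SppsG8810 and 72.2, 71.4 and 66.4 CPM in w1118. All other libraries of that age had 50.9 to 82.6 CPM, so the SppsG8810 libraries stood below all of them. The change was -2.90 ± 0.15, adjusted p = 1e-07 (edgeR), or 0.134 of the w1118 level. pdm2, its neighbouring paralog on 2L that codes for a similar POU factor, had 20.2, 17.8 and 18.7 CPM against 15.1, 15.4 and 16.9 CPM, a change of 0.26 ± 0.14 that missed the threshold (adjusted p = 0.33) although every SppsG8810 library lay above the controls, and that passed in the regrouped fit (adjusted p = 0.028). nub was the 1 member changed by more than 2-fold in this comparison.

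toy, a Pax6 gene of eye and brain on chromosome 4, had 62.97, 67.2 and 69.2 CPM in SppsG8810 and 42.6, 41.5 and 46.3 CPM in w1118. The groups did not overlap, and the rise was 0.61 ± 0.07, adjusted p = 0.00026. ey, the second Pax6 gene, also on chromosome 4, had 18.4, 16.1 and 16.8 CPM against 20.96, 17.6 and 20.2 CPM, and its change of -0.20 ± 0.10 missed the threshold (adjusted p = 0.27), with overlapping groups. bi, a T-box gene of the optic lobe and wing, had 34.9, 36.6 and 35.1 CPM against 23.5, 26.8 and 29.4 CPM and rose by 0.42 ± 0.11 (adjusted p = 0.026), a call lost in 5 of 6 fits that left out a library.

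Several NK and LIM homeobox genes fell. slou, which specifies muscle founder identity, had 11.3, 10.3 and 9.96 CPM against 17.8, 19.99 and 19.9 CPM (-0.86 ± 0.09, adjusted p = 5.9e-05). C15, a homeobox gene of the amnioserosa and the leg tip, had 6.76, 6.07 and 6.86 CPM against 10.7, 10.9 and 12.3 CPM (-0.78 ± 0.10, adjusted p = 0.00034). Awh, a LIM gene of imaginal cells, had 13.8, 13.02 and 11.5 CPM against 23.7, 24.1 and 23.9 CPM (-0.90 ± 0.10, adjusted p = 0.00018). In each of the 3 genes, every SppsG8810 library lay below every w1118 library.

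By role, 4 of 5 LIM homeobox members were lower (ap, Lim3, Awh and tup), as were 3 of 5 tested NK members (lbl, slou and C15), 2 of 3 Iroquois members (ara and caup), 2 of 3 GATA members (pnr and GATAe) and 5 of 9 segmentation genes (en, eve, wg, hh and opa). Of the genes of neural identity, Poxn, a Pax gene of chemosensory bristles, had 3.62, 4.01 and 3.43 CPM against 6.36, 6.55 and 7.399 CPM (-0.87 ± 0.16, adjusted p = 0.0044). kn, the COE factor of blood and neuron fate, had 55.2, 50.8 and 54.3 CPM against 73.7, 72.5 and 81.04 CPM (-0.50 ± 0.07, adjusted p = 0.00074). Neither gene overlapped between the groups. None of the 6 appendage and trunk genes (Dll, al, salm, salr, tsh and dpp) passed the threshold. dpp, for one, had 38.6, 40.5 and 40.9 CPM against 43.2, 40.1 and 36.95 CPM.

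The count of members lower in SppsG8810 fell when any library was left out. Leaving out 1 of the 6 libraries left 9 to 15 members lower and 1 to 3 higher, with 9 lower without SppsG8810 replicate 1, 12 without replicate 2, 10 without replicate 3, and 15, 12 and 10 without w1118 replicates 1, 2 and 3, where 4.32% to 4.97% of all genes were called. toy, dac, slou, C15, nub, Awh, ems, Dr, Poxn and kn kept their calls in every setting tried, which is 10 of 28. In the regrouped fit 31 members were lower and 4 higher (10.4% and 7.80% of all genes). In the same libraries Psc was higher by 3.55 ± 0.52 (adjusted p = 0.0016) and its paralog Su(z)2 by 1.75 ± 0.11 (adjusted p = 1.1e-06). They were the 2 of 23 Polycomb group genes that passed (8.70% higher, beside 3.43% of all genes). The part of this in the members' levels was not tested. Spps, the gene of the label, missed the threshold (0.04 ± 0.07, adjusted p = 0.85).

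**Figure D4:**
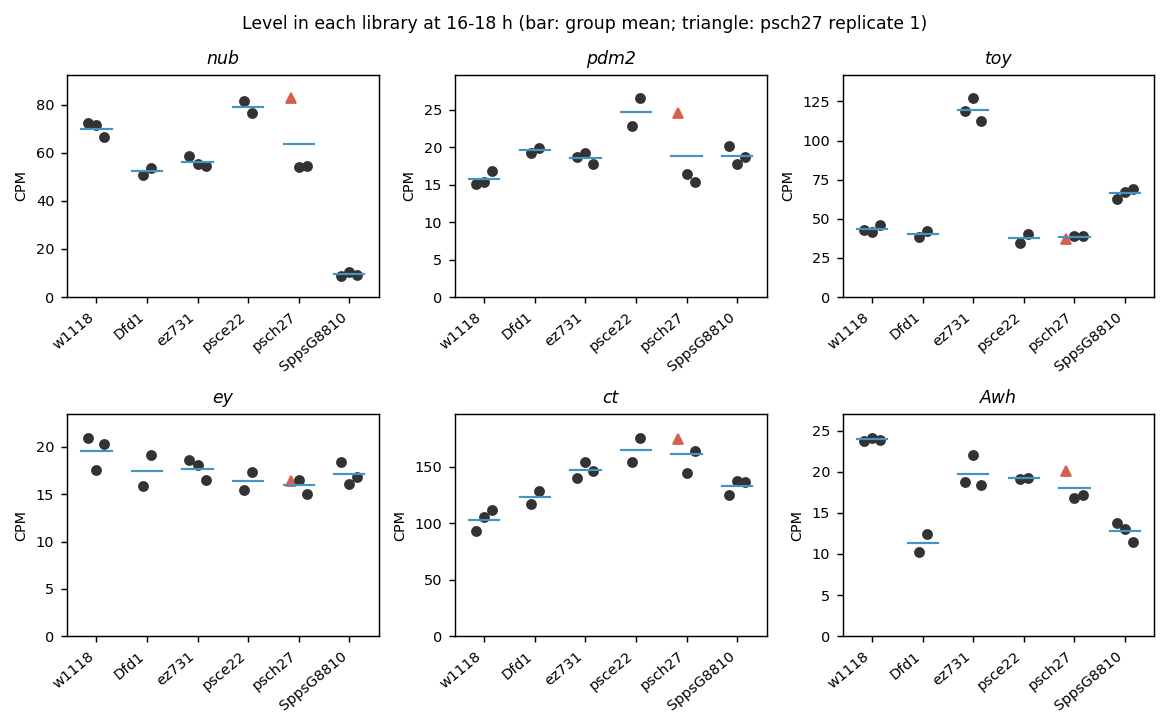
CPM of nub, pdm2, toy, ey, ct and Awh in each library at 16-18 h, by label, from an axis that starts at 0. Points are libraries, bars are group means, and the triangle is psch27 replicate 1. nub at 8.55 to 10.4 CPM in SppsG8810 and toy at 112 to 127 CPM in ez731 stand apart from all other libraries.

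In ez731 the largest change of a member was a rise of toy, and all 3 GATA members fell. toy (chromosome 4, 989725 to 1007922 on dm6) had 119, 127 and 112 CPM, above every other library of that age, and rose by 1.46 ± 0.07, adjusted p = 3.1e-07, to 2.75 times w1118. ey had 18.6, 18.1 and 16.4 CPM against 20.96, 17.6 and 20.2 CPM, a change of -0.15 ± 0.10 (adjusted p = 0.29) with overlapping groups. toy was the 1 member changed by more than 2-fold in ez731.

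The GATA genes srp, GATAe and pnr lie in this order on 3R. pnr, of the dorsal ectoderm and heart, had 11.8, 11.3 and 9.89 CPM in ez731 against 16.9, 17.8 and 16.4 CPM (-0.63 ± 0.09, adjusted p = 0.00048). GATAe had 93.9, 90.9 and 86.2 CPM against 131, 143 and 130.4 CPM (-0.58 ± 0.11, adjusted p = 0.0019). srp, the GATA factor of blood, fat body and endoderm, had 70.5, 82.5 and 76.2 CPM against 93.4, 95.1 and 90.3 CPM (-0.28 ± 0.08, adjusted p = 0.016), and its exons overlap those of a non-coding gene on the same strand. For all 3 genes the ez731 libraries lay below the w1118 libraries, and the srp call was lost without ez731 replicate 1 or w1118 replicate 2 (adjusted p up to 0.06).

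Of the clustered Iroquois and Dorsocross genes, 1 of 3 in each cluster passed the threshold, and differences between neighbours were not tested. ara, a homeobox gene that patterns the notum and muscles, had 37.04, 34.5 and 33.9 CPM against 43.2, 51.98 and 48.9 CPM and fell (-0.45 ± 0.07, adjusted p = 0.00083). Its neighbours caup (0.01 ± 0.07, adjusted p = 0.96) and mirr (0.10 ± 0.07, adjusted p = 0.3) missed the threshold. Doc3, a T-box gene of the Dorsocross cluster, had 5.13, 6.02 and 4.51 CPM against 7.12, 6.83 and 7.65 CPM (-0.46 ± 0.12, adjusted p = 0.012), and its call was lost without ez731 replicate 3 (adjusted p = 0.053). Doc1 (-0.07 ± 0.09, adjusted p = 0.59) and Doc2 (-0.08 ± 0.16, adjusted p = 0.75) missed the threshold.

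ems, a head gap homeobox gene, was at 19.4, 19.5 and 18.2 CPM in ez731 against 26.4, 24.2 and 27.8 CPM (-0.46 ± 0.11, adjusted p = 0.0084). salm was at 54.7, 60.2 and 56.5 CPM against 44.4, 48.2 and 52.99 CPM (0.24 ± 0.08, adjusted p = 0.043), and that call was lost in 4 of 6 fits that left out a library. Neither gene overlapped between the groups. Optix, en, wg, lbl, slou, tup and vnd were also lower. gsb-n had 2.88, 1.29 and 1.13 CPM against 2.798, 2.79 and 2.7 CPM, so that 2 of 3 libraries were low and the groups overlapped (-0.65 ± 0.31, adjusted p = 0.13). The count of 16 members called was 13 to 17 when 1 library was left out. It was 29 in the regrouped fit (7 higher and 22 lower), where 42.3% of all genes were called, higher and lower together.

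The ez731 libraries held RNA of eggshell and yolk protein genes, used here as ovary markers, and its source was not tested. The summed level of 15 such genes was 1334, 112 and 98.5 CPM in ez731 and 7.9 to 32.9 CPM in w1118. Of the 15, 6 were called higher (40%, beside 13.2% of all genes) and 0 lower. Of 9 neuronal markers, 6 were higher (66.7%, beside 13.2% of all genes) and 0 lower, with a summed level of 2257 to 2670 CPM against 1847 to 2094 CPM. Without ez731 replicate 1, the library with the most eggshell and yolk protein RNA, 17 members were called. Replicates 2 and 3 still held 112 and 98.5 CPM of these genes, so that fit does not remove this RNA. The part of these differences in the members' levels was not tested.

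In psce22, 12 members had more RNA than in w1118, a share (20%) near that of all genes (17.7%), and 7 had less, a share (11.7%) below that of all genes (21.9%). By role, 3 of 6 retinal determination genes and 3 of 6 T-box genes were higher and 0 lower, whereas of 4 head and terminal gap genes 1 was higher and 2 were lower. so, a homeobox gene, and eya, its phosphatase partner in retinal determination, were higher, as was dac, a nuclear cofactor of the same network. so had 47.6 and 53.7 CPM in psce22 against 26.8, 32.7 and 31.4 CPM (0.74 ± 0.26, adjusted p = 0.039). eya had 25.6 and 24.6 CPM against 14.7, 17.2 and 19.1 CPM (0.56 ± 0.17, adjusted p = 0.019). dac had 87 and 91.2 CPM against 69.4, 76.9 and 80.3 CPM (0.24 ± 0.07, adjusted p = 0.023). In each, both psce22 libraries were above all 3 controls, whereas Optix, a relative of so, overlapped them (0.03 ± 0.08, adjusted p = 0.78).

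The T-box paralogs H15 and mid, which act in the heart and the epidermis, had more RNA too. H15 had 23.2 and 24.4 CPM against 16.7, 15.99 and 18.9 CPM (0.47 ± 0.13, adjusted p = 0.016), and mid had 39.9 and 42.5 CPM against 26.04, 29.9 and 32.4 CPM (0.48 ± 0.16, adjusted p = 0.031). oc, the Otx gene of the head, had 35.6 and 33.05 CPM against 22.8, 22.4 and 27.4 CPM (0.51 ± 0.15, adjusted p = 0.022). All of these psce22 libraries lay above the controls. pdm2 had 22.9 and 26.6 CPM against 15.1, 15.4 and 16.9 CPM (0.65 ± 0.16, adjusted p = 0.0086), while nub at 81.4 and 76.4 CPM missed the threshold (0.17 ± 0.15, adjusted p = 0.37). bi, Lim3, salm, dpp and ct were also higher.

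Among the falls, al, a homeobox gene of distal appendages, had 19.9 and 20.1 CPM against 36.5, 32.5 and 34.5 CPM (-0.78 ± 0.13, adjusted p = 0.0022). tll, a nuclear receptor gene of the brain, had 0.957 and 1.31 CPM against 2.24, 2.37 and 2.05 CPM (-0.97 ± 0.31, adjusted p = 0.026). Poxn had 3.49 and 4.91 CPM against 6.36, 6.55 and 7.399 CPM (-0.69 ± 0.18, adjusted p = 0.011). In these 3 genes no psce22 library reached the controls. exex, a homeobox gene of motor neurons, had 17.9 and 20.4 CPM against 26.4, 25.5 and 26.3 CPM (-0.44 ± 0.17, adjusted p = 0.0497), and cad had 46.3 and 45.5 CPM against 65.5, 62.1 and 59.3 CPM (-0.44 ± 0.13, adjusted p = 0.018). Both were apart from the controls as well, and hh and Awh were also lower.

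psch27 replicate 1 differed from replicates 2 and 3 in these genes. In psch27 replicate 1, so was at 48.4 CPM, mid at 40.1 CPM, oc at 36.5 CPM, pdm2 at 24.6 CPM, al at 19.5 CPM and exex at 16.9 CPM. In psch27 replicates 2 and 3, so was at 22.1 and 23.8 CPM, mid at 26.5 and 27.3 CPM, oc at 22.5 and 25.7 CPM, pdm2 at 16.5 and 15.4 CPM, al at 29.3 and 26.9 CPM, and exex at 27.7 and 24.4 CPM. Replicate 1 thus lay within or next to the psce22 range in each of the 6 genes, and apart from replicates 2 and 3.

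**Figure D5:**
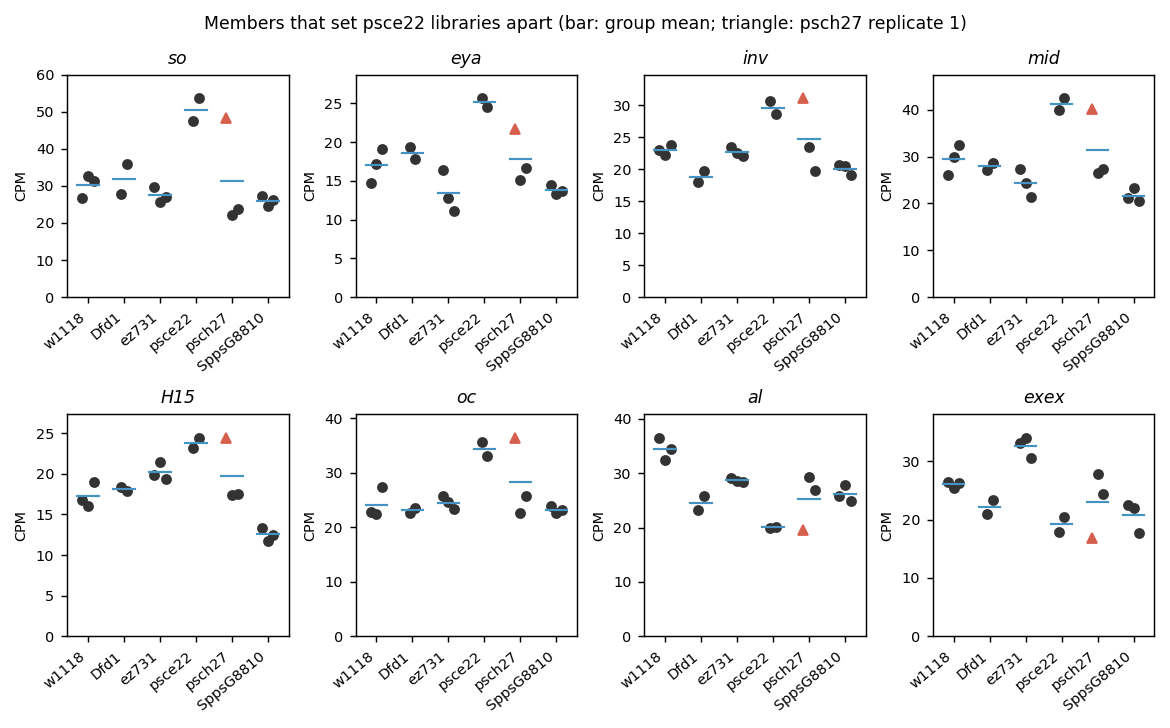
CPM of so, eya, inv, mid, H15, oc, al and exex in each library at 16-18 h, by label, from an axis that starts at 0. Points are libraries, bars are group means, and the triangle is psch27 replicate 1. The triangle sits near the psce22 points and away from the other psch27 points, as for so (48.4 CPM beside 47.6 and 53.7 CPM, and 22.1 and 23.8 CPM).

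With groups by label, few psch27 calls followed. ct was higher, and hh, al, Awh, GATAe and vnd were lower. hh, the Hedgehog signal, had 7.93, 8.79 and 9.47 CPM against 12.5, 11.9 and 11.9 CPM (-0.47 ± 0.12, adjusted p = 0.034), with no overlap. Awh had 20.1, 16.8 and 17.1 CPM against 23.7, 24.1 and 23.9 CPM (-0.41 ± 0.10, adjusted p = 0.031). vnd, a homeobox gene of the ventral neural column, had 22.9, 21.5 and 23.1 CPM against 26.6, 29.8 and 28.6 CPM (-0.33 ± 0.09, adjusted p = 0.036), and GATAe had 121, 89.2 and 95.5 CPM against 131, 143 and 130.4 CPM (-0.40 ± 0.11, adjusted p = 0.039). al, given above for each library, changed by -0.45 ± 0.12 (adjusted p = 0.035), and all 5 genes lay below the controls in every library. Of these calls only ct held whichever library was left out, where the count ran from 1 without w1118 replicate 1, 2 or 3, and 2 without psch27 replicate 2 or 3, to 11 without psch27 replicate 1. ct itself missed the threshold in a fit of the 2 groups only (adjusted p = 0.067).

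The regrouped fit gave more calls in the psce22 set. With psch27 replicate 1 added, 23 of 60 members were higher (38.3%) and 10 lower (16.7%), beside 24.7% and 28.6% of all genes. en and inv, neighbouring homeobox paralogs of the posterior compartment, were then both higher. inv had 30.7 and 28.6 CPM in psce22 and 31.1 CPM in psch27 replicate 1 against 22.9, 22.3 and 23.9 CPM (0.39 ± 0.07, adjusted p = 0.00034), and en had 25.3 and 23.9 CPM and 25.4 CPM against 20.04, 22.8 and 20.5 CPM (0.24 ± 0.06, adjusted p = 0.0062). In both, the 3 mutant libraries lay above the controls. wg, dpp, bap, Lim1, tup and Dll were also higher, and by label inv had missed the threshold (0.36 ± 0.14, adjusted p = 0.051).

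psch27 replicates 2 and 3 alone had 1 member higher (1.67%) and 10 lower (16.7%), beside 6.35% and 7.66% of all genes. The lower ones were wg, opa, so, GATAe, nub, ap, Awh, al, tsh and vnd. Compared directly, the psce22 set was above psch27 replicates 2 and 3 in 27 members (45%) and below in 5 (8.33%), beside 24.0% and 27.1% of all genes. H15 and so were among the higher ones, so at 47.6 and 53.7 CPM and 48.4 CPM against 22.1 and 23.8 CPM, and al was among the lower ones (-0.50 ± 0.07, adjusted p = 4.3e-05). SppsG8810 was above psch27 replicates 2 and 3 in 1 member, toy (1.67%), and below in 10 (16.7%), beside 2.11% and 2.73% of all genes, with nub at -2.53 ± 0.07, adjusted p = 8.8e-12. Both direct comparisons were chosen after the data were seen.

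Fewer psce22 members passed by label when a library was left out, while their changes kept their sign. Over all settings so ran from 0.66 to 0.83, eya from 0.47 to 0.65 and al from -0.83 to -0.74. Of 19 calls by label, fits that left out 1 library gave 4 without psce22 replicate 1, 3 without psce22 replicate 2, and 5, 7 and 14 without w1118 replicates 1, 2 and 3, and of the calls by label only al and ct held in each of them. Of 10 muscle markers 5 were lower (50%, beside 21.9% of all genes) and 0 higher in psce22, with a summed level of 43140 and 41230 CPM against 47430 to 49900 CPM in w1118. Of 5 neuroblast markers 3 were higher (60%, beside 17.7% of all genes) and 0 lower, with a summed level of 138 and 139.9 CPM against 106 to 120.4 CPM. Their part in the members' levels was not tested.

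In Dfd1, 24 of 60 members were lower than in w1118 (40%, beside 27.0% of all genes), with at least 1 in every role group. The POU and retinal determination groups had 1 lower member each, nub and Optix. The nub call was lost without w1118 replicate 1 or 2, and the Optix call in a fit of Dfd1 and w1118 alone. The median change of the 59 members was -0.26 and that of all genes 0.02, and 47 of 59 were below 0. prd, Doc3, Awh and ems were the 4 members lower by more than 2-fold, and the signals hh, dpp and wg fell too. In the regrouped fit 28 members were lower and 2 higher, where 61.7% of all genes were called, higher and lower together.

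Doc3 had 2.98 and 3.34 CPM in Dfd1 against 7.12, 6.83 and 7.65 CPM (-1.19 ± 0.14, adjusted p = 2.9e-05), and Doc1 had 7.83 and 7.47 CPM against 13.5, 14.4 and 13.5 CPM (-0.85 ± 0.10, adjusted p = 3e-05). Doc2 had 3.35 and 3.83 CPM against 4.58, 4.74 and 3.999 CPM and did not pass (-0.31 ± 0.18, adjusted p = 0.16). Both Dfd1 libraries were thus below the controls in all 3 genes of the cluster. Awh had 10.3 and 12.4 CPM against 23.7, 24.1 and 23.9 CPM (-1.08 ± 0.12, adjusted p = 1.8e-05), and ems had 12.2 and 13.9 CPM against 26.4, 24.2 and 27.8 CPM (-1.005 ± 0.13, adjusted p = 5.1e-05). prd had 0.367 and 0.393 CPM against 0.865, 1.25 and 1.25 CPM (-1.55 ± 0.39, adjusted p = 0.0047). These 3 genes were apart from the controls too, although prd had few reads and its exons overlap an antisense gene.

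hh had 5.67 and 7.47 CPM in Dfd1 against 12.5, 11.9 and 11.9 CPM (-0.88 ± 0.14, adjusted p = 0.00023). en, which activates hh in the posterior compartment, had 12 and 12.7 CPM against 20.04, 22.8 and 20.5 CPM (-0.77 ± 0.12, adjusted p = 0.00026). dpp, the BMP ligand, had 24.8 and 26.6 CPM against 43.2, 40.1 and 36.95 CPM (-0.64 ± 0.13, adjusted p = 0.0012). The groups did not overlap in any of the 3. All 3 Iroquois genes were lower, ara (-0.51 ± 0.08, adjusted p = 0.0003), caup (-0.48 ± 0.08, adjusted p = 0.0005) and mirr (-0.30 ± 0.08, adjusted p = 0.0052), and mirr lost its call without Dfd1 replicate 1 (adjusted p = 0.071).

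The Dfd1 libraries held more eggshell and yolk protein RNA than the w1118 libraries. The 15 genes summed to 3686 and 1112 CPM, and 15 of 15 were called higher (beside 25.5% of all genes). Of 10 muscle markers, 8 were lower (80%, beside 27.0% of all genes) and 0 higher, with sums of 35060 and 38580 CPM. Of 23 genes of the Polycomb group, 12 passed upward (52.2%, beside 25.5% of all genes) and 2 downward (8.70%, beside 27.0%). Without Dfd1 replicate 1, which held the most eggshell and yolk protein RNA, the median change was -0.17 in the members and -0.0023 in all genes. Replicate 2 still held 1112 CPM of these genes, so that fit does not remove this RNA. The part of these differences in the members' levels was not tested.

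ct was higher in each mutant group at 16-18 h, all compared with the same controls. w1118 had 93.03, 105 and 111 CPM, Dfd1 117 and 129 CPM, ez731 140.3, 154 and 146 CPM, psce22 154 and 176 CPM, psch27 175, 144 and 164 CPM, and SppsG8810 125, 137 and 137 CPM. No mutant library reached down to the controls. None reached the 212 to 237 CPM of w1118 at 14-16 h either, but those levels come from another count table, scaled on its own. The change was 0.25 ± 0.10, adjusted p = 0.047 in Dfd1, 0.51 ± 0.09, adjusted p = 0.0012 in ez731, 0.68 ± 0.10, adjusted p = 0.0012 in psce22, 0.64 ± 0.09, adjusted p = 0.0012 in psch27 and 0.37 ± 0.09, adjusted p = 0.021 in SppsG8810. Calls in Dfd1 and SppsG8810 were lost in 4 of 5 and 4 of 6 fits that left out a library.

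Groups at 16-18 h were also compared with each other by label. SppsG8810 was below psce22 in 33 members (55%) and above in 3 (5%), where 20.0% and 23.1% of all genes were lower and higher, and the median difference of the members was -0.39. nub (-3.07 ± 0.16, adjusted p = 1.5e-07), so (-0.96 ± 0.26, adjusted p = 0.012), mid (-0.92 ± 0.16, adjusted p = 0.0028) and H15 (-0.92 ± 0.13, adjusted p = 0.0014) differed most among the members called. These are the levels given above for nub and so, with every SppsG8810 library below every psce22 library in each of the 4. The count fell from 36 to 17 without psce22 replicate 2 and to 23 without psce22 replicate 1.

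psce22 was above ez731 in 25 members (41.7%) and below in 5 (8.33%), beside 25.6% and 26.2% of all genes. toy was lower (-1.67 ± 0.09, adjusted p = 7.5e-07), and so was exex (-0.76 ± 0.17, adjusted p = 0.0028), which had 33.1, 34.02 and 30.5 CPM in ez731. pnr, srp and GATAe were all higher in psce22. Leaving out 1 library left 15 to 27 calls, with 15 without psce22 replicate 2, 17 without psce22 replicate 1 and 18 without ez731 replicate 3.

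In the nej mutants at 14-16 h, the members changed little. The median change was 0.03 in nej3 and -0.01 in nejEP1179, 0 members changed by more than 2-fold in either, and the median size of change, 0.0998 and 0.0765, was below that of all genes (0.1375 and 0.1466). hh, exex, Doc1, bap and Rx were higher in nej3, and Awh, dac, ara and tup lower. In nejEP1179 Rx and salm were higher, and ind, gsb-n, otp and Lim3 lower.

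Rx, a homeobox gene of the brain, had 14.6, 16.7, 16.9 and 15.1 CPM in nej3, 15.2, 16.3, 15.4 and 16.6 CPM in nejEP1179, and 13.1, 12.8, 12.9 and 13.4 CPM in w1118. All 8 mutant libraries were above the 4 controls, with a rise of 0.28 ± 0.07, adjusted p = 0.0066 in nej3 and 0.28 ± 0.07, adjusted p = 0.0071 in nejEP1179. exex had 39.1, 30.7, 32.3 and 30.5 CPM in nej3 and 25.2, 25.1, 25.6 and 26.1 CPM in w1118 (0.38 ± 0.07, adjusted p = 0.0011), without overlap. hh had 13.6, 13.7, 12.9 and 10.9 CPM against 10.2, 8.53, 9.47 and 9.81 CPM (0.42 ± 0.10, adjusted p = 0.0059), with the lowest nej3 library just above the highest control.

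bap, an NK homeobox gene of the visceral mesoderm, had 9.66, 10.2, 11.1 and 7.92 CPM in nej3 against 7.26, 5.97, 7.15 and 8.83 CPM (0.42 ± 0.14, adjusted p = 0.035), and the groups overlapped. Doc1 had 12.2, 11.6, 10.4 and 10.6 CPM against 9.33, 8.38, 8.33 and 8.33 CPM (0.38 ± 0.10, adjusted p = 0.01), and Awh had 16.5, 15.9, 14.7 and 15.2 CPM against 19.7, 18.3, 19.1 and 18.3 CPM (-0.28 ± 0.07, adjusted p = 0.007). Both were apart from the controls. The changes of dac, ara and tup were -0.18 ± 0.05, adjusted p = 0.011, -0.18 ± 0.05, adjusted p = 0.018 and -0.18 ± 0.05, adjusted p = 0.022 in this order. Leaving out 1 library left 8 to 11 calls in nej3, and bap lost its call in 6 of 8 such fits, tup in 3 of 8 and ara in 2 of 8.

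otp, a homeobox gene of the brain and hindgut whose exons overlap an antisense gene, had 43.4, 40.3, 38.5 and 36.9 CPM in nejEP1179 against 47.05, 44.95, 51.6 and 49.95 CPM (-0.28 ± 0.06, adjusted p = 0.0024). gsb-n had 7.22, 7.02, 6.28 and 6.31 CPM against 9.14, 7.82, 8.56 and 8.55 CPM (-0.34 ± 0.10, adjusted p = 0.017). salm had 109, 98.99, 100.3 and 119 CPM against 92.8, 93.1, 95.2 and 91.4 CPM (0.20 ± 0.07, adjusted p = 0.038). In all 3 the groups were apart. ind was at 0.778, 0.569, 0.778 and 0.316 CPM against 1.25, 1.18, 0.956 and 1.04 CPM, few reads in each library (-0.81 ± 0.25, adjusted p = 0.029), and Lim3, a LIM gene of motor neurons, changed by -0.19 ± 0.06, adjusted p = 0.022. Only Rx and otp of these 6 kept their calls in every setting, salm and ind lost theirs in 6 of 8 and 5 of 8 fits that left out a library, and the count fell to 3 without w1118 replicate 1 or 2.

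Between the alleles, nej3 was above nejEP1179 in 3 members (5%) and below in 2 (3.33%), beside 5.0% and 4.30% of all genes. hh (0.40 ± 0.10, adjusted p = 0.021), Doc1 (0.36 ± 0.10, adjusted p = 0.035) and exex (0.29 ± 0.07, adjusted p = 0.019) were higher in nej3. dac (-0.21 ± 0.05, adjusted p = 0.012) and mirr (-0.18 ± 0.05, adjusted p = 0.047) were lower, and hh and mirr overlapped between the alleles. The count was 1 without nejEP1179 replicate 3 and 3 without nejEP1179 replicate 4 or nej3 replicate 1. Of 10 muscle markers, 6 were higher (60%, beside 12.3% of all genes) and 0 lower in nej3 (sums of 34490 to 40380 CPM against 30070 to 32620 CPM in w1118). In nejEP1179 2 were higher (20%, beside 12.6%) and 0 lower (32820 to 39690 CPM), and the part of these markers in the members' levels was not tested.

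Other lists of related genes were described in the same fits. Of 34 further developmental transcription factors that are not members, 10 were lower and 0 higher in SppsG8810 (median -0.31), a share of 29.4% lower beside 5.43% of all genes. In ez731 8 were lower and 0 higher (median -0.14), 23.5% beside 15.8% of all genes. In Dfd1 8 were lower and 1 higher (median -0.096), and the 23.5% lower was under the 27.0% of all genes. In psce22 6 were higher and 3 lower (median 0.07), and the 17.6% higher was near the 17.7% of all genes. In nej3 11 were higher and 2 lower (median 0.087), 32.4% higher beside 12.3% of all genes. In nejEP1179 1 was higher and 1 lower (median -0.023), 2.94% each beside 12.6% and 12.3%. In psch27 2 were lower and 0 higher (median -0.031), 5.88% lower beside 4.0%. The share lower in SppsG8810 was thus above its background in these genes as well as in the members. Of the 8 Hox genes, 4 were higher and 2 lower in psce22 (median 0.26), 50% higher beside 17.7% of all genes, with Abd-B at 1.39 ± 0.34 (adjusted p = 0.0096) and Antp at 0.61 ± 0.19 (adjusted p = 0.024), and 0 passed in SppsG8810, nej3 or nejEP1179. In Dfd1 the lower Hox genes were Dfd and lab, as in ez731, and in psch27 lab alone was lower.

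Calls among the 23 genes of the Polycomb group were 9 upward (39.1%, beside 17.7% of all genes) and 2 downward in psce22, 1 upward and 4 downward in ez731, none upward and 4 downward in nej3, 3 upward and 2 downward in nejEP1179, and 0 in psch27. Of 6 glial markers, 4 were lower (66.7%, beside 27.0% of all genes) and 1 higher (16.7%, beside 25.5%) in Dfd1. In psce22 3 were lower (50%, beside 21.9%) and 1 higher (16.7%, beside 17.7%). In SppsG8810 2 were lower (33.3%, beside 5.43%) and 0 higher. The other groups had at most 1 glial marker called in each direction against w1118. Of 5 neuroblast markers, 2 were lower in ez731 (40%, beside 15.8% of all genes), and 3 were higher (60%, beside 25.5%) and 1 lower (20%, beside 27.0%) in Dfd1. In psch27, nej3 and nejEP1179 1 each was higher (20%, beside 3.48%, 12.3% and 12.6% in this order), and 0 passed in SppsG8810. Of 9 neuronal markers, 4 were higher (44.4%, beside 17.7% of all genes) and 1 lower (11.1%, beside 21.9%) in psce22. In psch27 4 were higher (44.4%, beside 3.48%), and in SppsG8810 1 was lower (11.1%, beside 5.43%). The 10 muscle markers gave 0 calls in SppsG8810, where their sum of 49610 to 51630 CPM lay beside 47430 to 49900 CPM in w1118. Of 15 eggshell and yolk protein genes 0 were called in SppsG8810, psce22 or psch27 by label. Their sum was 5.66, 170 and 53.3 CPM in psch27, 46.6 and 12.8 CPM in psce22 and 3.1 to 20.9 CPM in SppsG8810, beside 7.9 to 32.9 CPM in w1118. In psch27 replicates 2 and 3 of the regrouped fit, 1 of the 15 was called higher.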

How the data were processed

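Short-read mRNA sequencing was available for 28 libraries. The authors deposited a table of raw counts per gene for each age. Per the submitters' processing notes, featureCounts and the dm6 genome were used, and per the study's methods short reads went through the snakePipes RNA-seq module with mapping by STAR. A stranded kit is named for the head libraries, and neither the kit of these embryo libraries nor the strand setting of the counting is given in the sources used here. Genes that overlap in antisense may therefore share reads. The authors' deposited tables per mutant hold DESeq2 fold changes and p-values, which were not used, and a mean normalized count (a signal averaged over the libraries compared). That signal served only to find which columns lay behind each table, over 364 possible sets at 16-18 h and 70 at 14-16 h, where 1 set matched to rounding each time.

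Genes were filtered with filterByExpr and scaled with TMM, leaving 10397 genes at 14-16 h and 11366 at 16-18 h. Each table was fitted once with edgeR 4.0.16 (glmQLFit, robust, glmQLFTest) in R 4.3.3 with group as the only term, and p-values were adjusted by Benjamini-Hochberg over all genes of a contrast, with a threshold of 0.05. Every adjusted p is edgeR's unless DESeq2 is named. The SE is the size of the log2 change divided by the square root of F. The test was checked on simulated counts with the same spread set for every gene. That check does not cover a group with a library that stands apart, such as psch27. Alternatives were RLE size factors, no filter, DESeq2 1.42.0, a fit of 2 groups, a replicate block, each library left out, and psch27 replicate 1 grouped with psce22. No 2 replicates were copies of each other.

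Members and gene lists were chosen with earlier results of these data known. Given in full were, per comparison with w1118, up to 5 largest rises and 5 largest falls among members with an adjusted p under 0.05 and a mean of at least 1 CPM in one of both groups, with neighbouring paralogs or partners. Other members named with values (such as kn, dpp, en in Dfd1, and those given between mutant groups) were chosen after their values were seen. Exon lengths and positions come from the Ensembl annotation of dm6. wg and ap carry other identifiers in each table and were matched by symbol within it. Promoter sequences were not used here. Python 3.11.15 and matplotlib 3.10.9 drew the plots.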

Additional observations from a re-analysis of the deposited data

Results flagged for a closer look

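Values of single libraries were screened in the 3 groups of 4 libraries, where chance alone flags about 1 in 20 groups, and 7 of 177 stood apart from the other 3 libraries of their group. Poxn was at 7.58 CPM in nej3 replicate 4 (the others at 6.68 to 6.75 CPM) and at 7.51 CPM in w1118 14-16 h replicate 3 (8.27 to 8.33 CPM). Doc1 was at 9.33 CPM in w1118 replicate 1 (8.33 to 8.38 CPM). In w1118 replicate 2, eya was at 21.5 CPM (22.4 to 22.5 CPM), C15 at 14.2 CPM (13.5 to 13.6 CPM) and salr at 70.4 CPM (68.9 to 69.0 CPM). so was at 39.8 CPM in w1118 replicate 3 (42.8 to 43.0 CPM). All 7 gaps were small against the level of the gene.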

How the results depend on the processing

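Counts of members called are given as higher and lower together. With psch27 replicate 1 grouped with psce22, 29 of the members were called in ez731 (16 by label), 33 in psce22 (19 by label) and 11 in psch27 (6 by label). A fit of the 2 groups only gave 33 in psce22, 2 in nej3 against nejEP1179 (5 in the fit of all groups), and 0 in psch27, where edgeR called 0.567% of all genes, DESeq2 called 6 members, and 15 members had an unadjusted p under 0.05 in the edgeR fit of all groups. Without the filter on low counts, psch27 had 3. Leaving out each library in turn gave 11 to 16 calls in SppsG8810, 1 to 11 in psch27, 3 to 14 in psce22, 13 to 17 in ez731, 16 to 23 in Dfd1, 8 to 11 in nej3, 3 to 7 in nejEP1179, 1 to 6 between the nej alleles, 17 to 34 in SppsG8810 against psce22 and 15 to 27 in psce22 against ez731. These fits have fewer samples, and other causes were not tested. RLE size factors gave 25 calls and DESeq2 29 in SppsG8810 (28 by TMM and edgeR), and in Dfd1 they gave 24 and 25. Of the members whose change against w1118 or another mutant is printed by label, only 2 that missed the threshold and lay near 0 changed sign. caup in ez731 (0.01) ran from -0.047 to 0.055 when a library was left out, with -0.041 without w1118 replicate 1 and -0.047 without ez731 replicate 2. Optix in psce22 (0.03) ran from -0.035 to 0.107, with -0.035 without w1118 replicate 1 and -0.009 without psce22 replicate 1, and was -0.011 with psch27 replicate 1 grouped with psce22.

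Deviations of same-numbered libraries correlated at -0.419 to 0.386 over 12 pairs at 14-16 h and -0.264 to 0.456 over 36 pairs at 16-18 h. Each comparison made had at least 1 such pair at 0.0402 or lower, so the numbers were not taken to pair the samples. ez731 and SppsG8810, which were not compared with each other, had 0.434, 0.241 and 0.456. A replicate block gave 9 calls in nej3, 5 in nejEP1179, 5 between the alleles, 25 in SppsG8810, 24 in Dfd1, 4 in psch27, 15 in psce22, 16 in ez731, 35 in SppsG8810 against psce22 and 25 in psce22 against ez731. Members of few reads had wide errors, with an SE of 0.43 for ind and 0.30 for prd in SppsG8810.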
